A study of Mus musculus with 8 samples.

Results

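The R-spondin module of Wnt signalling was measured by 17 of the 45101 probe sets on the array, those whose only annotated gene symbol is Rspo1, Rspo2, Rspo3, Rspo4, Lgr4, Lgr5, Lgr6, Znrf3, Rnf43 or Axin2. All 10 genes had at least 1 probe set. Each array held RNA of hindbrain choroid plexus, the epithelium and vascular stroma of the fourth ventricle that secrete cerebrospinal fluid, taken on embryonic day 13. The 4 arrays labelled Otx2 k.o. came from a mouse strain deficient for Otx2, a homeodomain factor needed for the forebrain and midbrain and made in choroid plexus, and the 4 wildtype arrays from their littermates. Both groups had a mixed strain background and received no treatment, and embryos were not sexed. The sources used here do not give the driver and time of the deletion or the number of embryos in a sample.

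R-spondins, named after the roof plate, are secreted proteins that strengthen a cell's response to Wnt ligands. They bind an Lgr receptor together with Znrf3 or Rnf43, membrane ubiquitin ligases that otherwise remove Frizzled receptors from the surface, and so keep Frizzled available. Axin2 is a scaffold of the complex that degrades beta-catenin, and Axin2, Znrf3 and Rnf43 are themselves known Wnt targets that feed back on the pathway.

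Across the arrays, the distributions were alike, with medians of 5.85 to 5.90 log2 units, and no 2 arrays were identical. The medians of knockout-labelled arrays (5.89 to 5.90) all lay slightly above those of wildtype arrays (5.85 to 5.88). The 1 probe set of Otx2 read 12.44 ± 0.04 log2 units in arrays labelled knockout and 11.97 ± 0.09 in wildtype arrays (SD, n = 4 each), so it was higher under the knockout label (limma, adjusted p = 0.00134). The sources used here do not place its probes relative to the deleted part, and probes outside that part check nothing. The group is therefore called knockout-labelled, and every direction below rests on the labels. Xist, read from female X chromosomes, lay between 11.27 and 12.05 log2 units in knockout-labelled arrays and between 6.06 and 11.99 in wildtype arrays, lowest in wildtype replicate 1. The tissue's defining marker Ttr was bright in both groups, at 14.17 ± 0.03 log2 units in knockout-labelled and 14.21 ± 0.04 in wildtype arrays. It was the 1 of 8 measured epithelial markers that did not pass, and the other 7 were lower (limma, adjusted p under 0.05).

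Of the 17 probe sets, 3 were higher in the knockout-labelled arrays, 1 each for Rspo1, Lgr4 and Axin2, and 0 were lower at an adjusted p under 0.05 (limma, where 6 of 17, or 35.3%, had an unadjusted p under 0.05, against 25.9% of all probe sets). Over all 45037 probe sets other than controls, 5.27% were higher and 7.46% lower in the same test. The median difference was 0.05 log2 units over the 17 and 0.01 over all. With the brightest probe set standing for each gene, 3 of 10 members were higher, against 6.31% of 18193 genes. Groups did not overlap for 4 probe sets, all higher in knockout-labelled arrays. Over all probe sets, the groups were apart and higher in 8.04% and apart and lower in 10.8%.

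**Figure D1:**
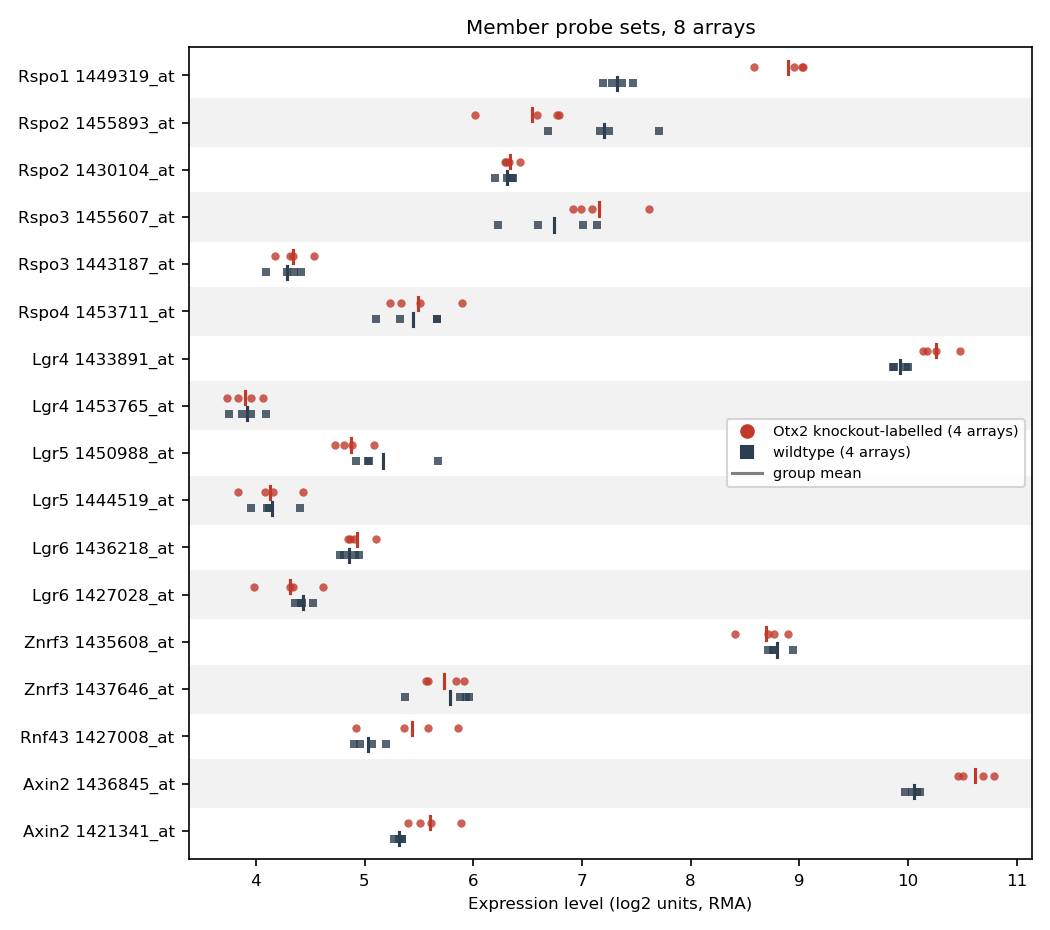
Expression level in log2 units (x axis) of the 17 probe sets (rows) in each of 4 knockout-labelled arrays (red circles) and 4 wildtype arrays (dark squares), with vertical bars at group means. The groups of Rspo1, of the brighter Lgr4 probe set and of both Axin2 probe sets are apart, and those of the other 13 overlap.

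**Figure D2:**
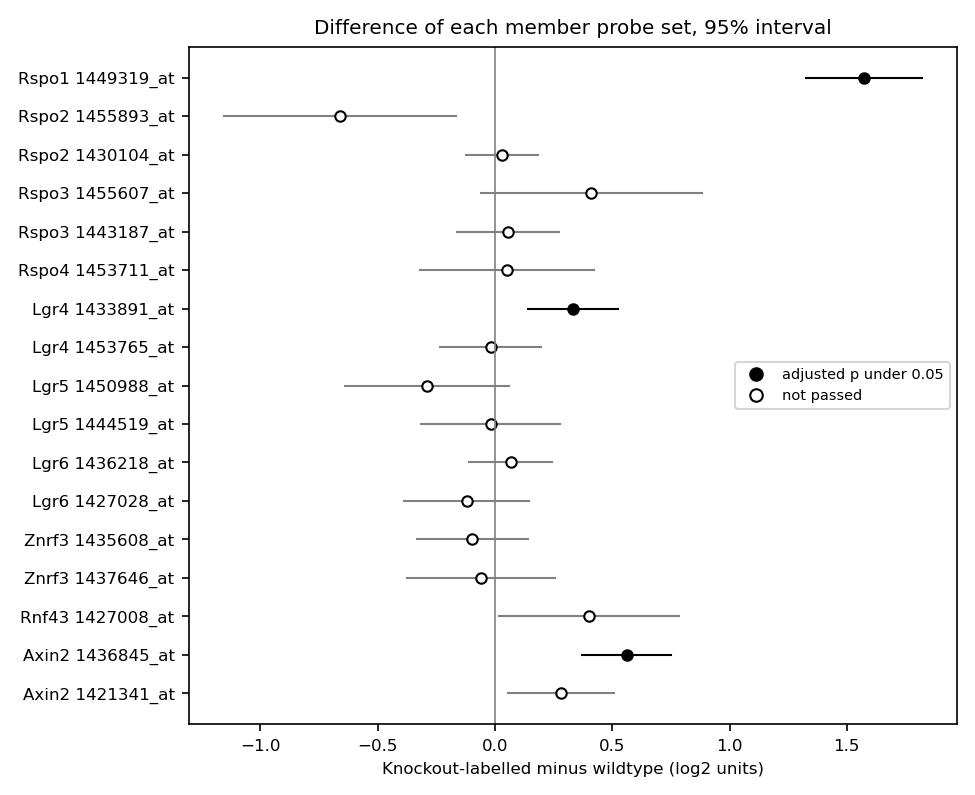
Knockout-labelled minus wildtype difference in log2 units (x axis) with its 95% interval from limma for each of the 17 probe sets; filled points have an adjusted p under 0.05. Rspo1 lies at 1.57, the brighter Axin2 probe set at 0.56 and the brighter Lgr4 probe set at 0.33, while the brighter Rspo2 probe set, at -0.66, lies on the other side of 0.

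Among the ligands, Rspo1 carried the largest difference of the 10 genes. Its probe set, 1449319_at, read 8.95, 8.58, 9.03 and 9.03 log2 units in knockout-labelled replicates 1 to 4, against 7.19, 7.47, 7.28 and 7.36 in wildtype replicates 1 to 4. All knockout-labelled arrays lay more than 1 log2 unit above every wildtype array. The group means were 8.90 ± 0.21 and 7.33 ± 0.12 (SD, n = 4 each), a difference of 1.57 log2 units (SE 0.11) or 2.98-fold, with a 95% interval of 2.51-fold to 3.53-fold (limma, adjusted p = 2.43e-05). Its rise ranked 33 among 18193 genes, and the difference stayed between 1.53 and 1.68 when any 1 array was left out. The gene had no other probe set on the array.

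Rspo1 and Axin2, the 2 members whose calls held in all 8 fits without 1 array, are shown by the sequence around their annotated transcription start, so that known binding words can be looked for beside the values. RefSeq promoter windows (build GRCm38.p6), running from 250 bases before the start to 50 bases after it, were given for 6 of the 10 members, and the capitals mark the 50 bases from the start on. The Rspo1 window is chr4:124986180-124986479 and the Axin2 window chr11:108920099-108920398, both on the plus strand.
Rspo1: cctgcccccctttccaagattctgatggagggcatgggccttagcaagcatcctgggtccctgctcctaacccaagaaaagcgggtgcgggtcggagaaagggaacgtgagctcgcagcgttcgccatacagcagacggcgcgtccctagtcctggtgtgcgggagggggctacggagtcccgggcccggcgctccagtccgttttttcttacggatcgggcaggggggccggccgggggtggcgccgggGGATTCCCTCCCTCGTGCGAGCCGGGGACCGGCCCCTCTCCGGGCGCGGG
Axin2: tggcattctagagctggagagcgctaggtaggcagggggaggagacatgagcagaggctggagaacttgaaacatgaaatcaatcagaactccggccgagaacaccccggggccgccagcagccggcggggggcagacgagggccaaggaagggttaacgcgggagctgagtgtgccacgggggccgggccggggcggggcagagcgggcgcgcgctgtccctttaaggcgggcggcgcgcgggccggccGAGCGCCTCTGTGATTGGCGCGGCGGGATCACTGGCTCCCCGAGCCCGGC

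These windows were searched on both strands for CTTTGA and CTTTGT, cores of TCF/LEF factors that act at the end of the Wnt pathway, and for GGATTA, the word preferred by the homeodomain class of Otx2. None of these words occurs in the windows of Rspo1, Axin2, Lgr4, Rspo4 or Lgr6. Of 32851 mouse windows of that length, 31.2% hold at least 1 of the TCF/LEF cores and 7.06% hold GGATTA. Most windows thus lack these words, and sites outside the windows were not searched, so their absence here tells little about these genes. One of the 2 Rnf43 windows, chr11:87662837-87663136 on the plus strand, has a GGATTA starting 67 bases before the start.

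Rspo2 differed in the other direction and did not pass. Its brighter probe set, 1455893_at, read 6.02, 6.59, 6.77 and 6.79 log2 units in knockout-labelled replicates 1 to 4, against 6.69, 7.71, 7.25 and 7.16 in wildtype replicates 1 to 4. The groups overlapped only through wildtype replicate 1, the lowest of its group. The difference was -0.66 log2 units (SE 0.22; limma, adjusted p = 0.0845). Deviations from group means correlated at 0.131 to 0.232 between same-numbered arrays. Another combination reached 0.294, so the values do not single out the number as a pairing. With the number as a block the difference passed (SE 0.12; limma, adjusted p = 0.0156). The difference was lower in 4 of 4 same-numbered pairs, by 0.38 to 1.12. In the main model it passed in 1 of the 8 fits without 1 array, that without wildtype replicate 1 (-0.83; limma, adjusted p = 0.0295). In the other fits the adjusted p reached 0.199. The dimmer Rspo2 probe set, 1430104_at, differed by 0.03 (95% interval -0.12 to 0.18), so the probe sets of this gene did not share the difference.

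Rspo3 and Rspo4 did not pass. The brighter Rspo3 probe set, 1455607_at, read 7.61, 6.92, 7.10 and 6.99 log2 units in knockout-labelled replicates 1 to 4, against 6.23, 7.14, 7.01 and 6.59 in wildtype replicates 1 to 4. The highest of the 8 was knockout-labelled replicate 1 and the lowest wildtype replicate 1, while the remaining arrays overlapped. The difference was 0.41 log2 units, with a 95% interval of -0.06 to 0.88 (limma, adjusted p = 0.260). In the same-numbered pair 1 it was 1.39, and in the other pairs -0.22, 0.09 and 0.39. A dim second Rspo3 probe set differed by 0.06 (-0.16 to 0.27). The single Rspo4 probe set differed by 0.05, with an interval of -0.32 to 0.42, and ranged from 5.23 to 5.89 log2 units in knockout-labelled arrays and from 5.11 to 5.67 in wildtype arrays.

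**Figure D3:**
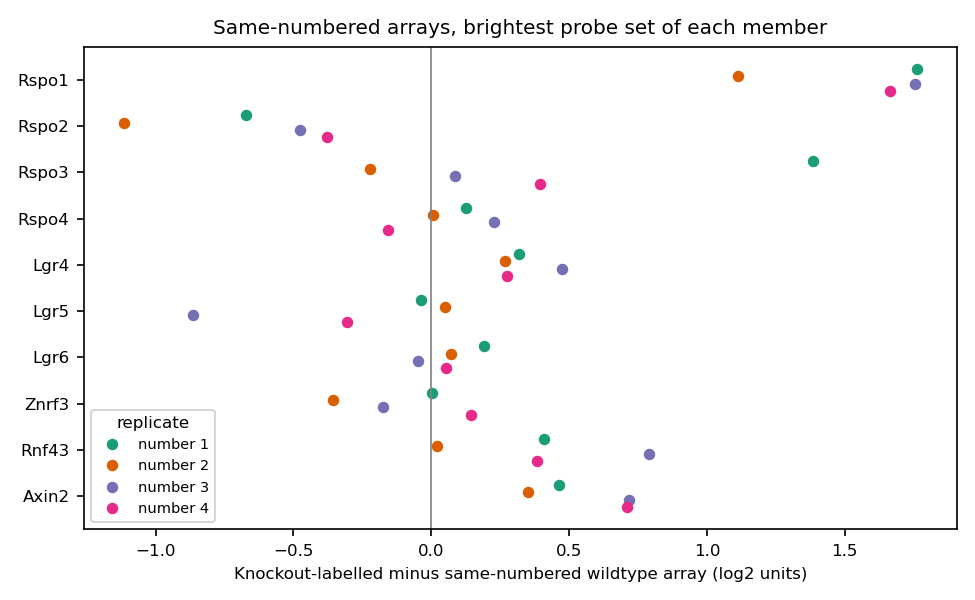
Difference in log2 units (x axis) between the knockout-labelled and the wildtype array of the same replicate number (colours) for the brightest probe set of each member (rows). All 4 pairs lie above 0 for Rspo1, Lgr4, Rnf43 and Axin2 and below 0 for Rspo2, and the Rspo3 pairs spread from -0.22 to 1.39.

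Whether members of a family changed unequally was tested on the difference between their log2 signals within each array. This compares changes and not amounts, but differences of dim probe sets are compressed. Where levels are unlike, the test cannot tell an unequal change from unequal compression. Rspo4, Lgr5, Lgr6 and Rnf43 lay under the median level of all probe sets. Pairs that hold Rspo1 share its difference, so they are not separate results. Of 10 pairs within families, 7 had an adjusted p under 0.05 in exact permutation tests over 70 assignments of the arrays, two-sided, where 0.0286 is the smallest p and all 7 reached it (adjusted p = 0.0408). Rspo1 minus Rspo2 averaged 2.36 ± 0.40 in knockout-labelled arrays and 0.12 ± 0.31 in wildtype arrays (SD, n = 4 each), a difference of 2.23. Rspo1 also changed more than Rspo3, by 1.16, and more than Rspo4, by 1.52 log2 units. Rspo2 minus Rspo3 ran from -1.59 to -0.20 in knockout-labelled arrays and from 0.24 to 0.57 in wildtype arrays, a difference of -1.07. Rspo2 minus Rspo4 differed by -0.71. For Rspo3 against Rspo4 the difference was 0.36 (exact p = 0.343). With the mean of each gene's probe sets, or without wildtype replicate 1, 2 or 3, fewer pairs reached the smallest p and 0 of 10 passed the adjustment. The differences of the 7 pairs kept their sign there, Rspo1 minus Rspo2 lying between 1.89 and 2.36.

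Among the receptors, Lgr4 was the one that passed, by a small margin. Its brighter probe set, 1433891_at, read 10.18, 10.13, 10.48 and 10.25 log2 units in knockout-labelled replicates 1 to 4, against 9.86, 9.87, 10.002 and 9.98 in wildtype replicates 1 to 4. The groups did not overlap, although the lowest knockout-labelled array lay close to the highest wildtype array. The difference was 0.33 log2 units (SE 0.09) or 1.26-fold, with a 95% interval of 1.10-fold to 1.44-fold (limma, adjusted p = 0.0321). In 7 of the 8 fits without 1 array the adjusted p missed 0.05, reaching 0.0924, and it passed without knockout-labelled replicate 2 (0.0188). The difference lay between 0.26 and 0.37 in these fits. It was 0.16 in the mean of both Lgr4 probe sets (adjusted p = 0.224), since the other, 1453765_at, was dim and differed by -0.02.

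Lgr5, the receptor known as a mark of epithelial stem cells, was dim, with means of 4.88 ± 0.15 log2 units in knockout-labelled and 5.17 ± 0.34 in wildtype arrays for the brighter of its probe sets. These arrays give no detection call, and the lower quartile of all probe sets was 4.34 log2 units. The difference was -0.29 with a 95% interval of -0.64 to 0.06 (limma, adjusted p = 0.288). It was -0.12 without wildtype replicate 3, the highest Lgr5 array at 5.68. The dimmer probe set differed by -0.02. Both Lgr6 probe sets were as dim, at 3.98 to 5.10 log2 units over all 8 arrays, and differed by 0.07 (-0.11 to 0.24) and -0.12 (-0.39 to 0.15). Within arrays, Lgr4 minus Lgr5 differed by 0.62 log2 units (exact permutation p = 0.0286, adjusted p = 0.0408 over 10 pairs). This gap joins differences of opposite sign, 0.33 for Lgr4 and -0.29 for Lgr5, of which the Lgr5 difference did not pass. The pair did not pass when any 1 wildtype array was left out (exact permutation, adjusted p = 0.0816 each). Without wildtype replicate 3 the gap was 0.48. Lgr4 against Lgr6 gave 0.27 and Lgr5 against Lgr6 gave -0.36 (exact p = 0.0857 each).

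Among the feedback genes, Axin2 was higher and Znrf3 was not. The brighter Axin2 probe set, 1436845_at, read 10.51, 10.46, 10.69 and 10.79 log2 units in knockout-labelled replicates 1 to 4, against 10.04, 10.11, 9.97 and 10.08 in wildtype replicates 1 to 4. The groups averaged 10.61 ± 0.15 and 10.05 ± 0.06 (SD, n = 4 each), with no overlap. The difference was 0.56 log2 units (SE 0.09) or 1.48-fold, with a 95% interval of 1.29-fold to 1.68-fold (limma, adjusted p = 0.00205), and it lay between 0.50 and 0.61 in the fits without 1 array. The dimmer probe set, 1421341_at, also had groups that did not overlap, at 5.51, 5.40, 5.61 and 5.89 in knockout-labelled and 5.27, 5.31, 5.35 and 5.35 in wildtype arrays, and differed by 0.28 without passing (adjusted p = 0.104). It passed in 1 of the 8 fits without 1 array, that without knockout-labelled replicate 2 (0.35; limma, adjusted p = 0.0330). In the other fits the adjusted p reached 0.199.

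The ligase Znrf3 had overlapping groups in both probe sets. The brighter, 1435608_at, read 8.71, 8.41, 8.77 and 8.90 log2 units in knockout-labelled replicates 1 to 4, against 8.71, 8.77, 8.94 and 8.75 in wildtype replicates 1 to 4. Its difference was -0.10, and the 95% interval of -0.33 to 0.14 does not reach the difference measured for Axin2 or Rspo1. The other probe set gave -0.06 (-0.37 to 0.26). The single probe set of the other ligase, Rnf43, read 5.36, 4.93, 5.86 and 5.58 in knockout-labelled replicates, against 4.96, 4.91, 5.07 and 5.20 in wildtype replicates. Its difference of 0.40 (SE 0.17) did not pass (adjusted p = 0.174). Without knockout-labelled replicate 2, whose 4.93 lay inside the wildtype range, it was 0.57 and passed (limma, adjusted p = 0.0121). That was the 1 of the 8 fits without 1 array in which Rnf43 passed, and the adjusted p reached 0.349 in the others. Within arrays, Znrf3 minus Rnf43 was 3.26 ± 0.25 in knockout-labelled and 3.76 ± 0.15 in wildtype arrays, a difference of -0.50 (SD, n = 4 each; exact permutation p = 0.0286, adjusted p = 0.0408). Without knockout-labelled replicate 3 it was -0.38 (adjusted p = 0.0816).

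Knockout-labelled replicate 2 was the lowest of its group for 8 of the 17 probe sets, namely Rspo1, the brighter ones of Rspo3, Lgr4, Lgr6 and Znrf3, Rnf43 and both of Axin2. It was the highest for 4, namely both of Lgr5 and the dimmer ones of Lgr6 and Rspo2. Among the marker lists, the same array had the lowest mean level of its group for stroma, 10.85 log2 units against 11.03 to 11.22 in the others, and also for macrophages (8.85), endothelium (9.03) and roof plate (9.34). It had the highest mean for neurons, 8.99 against 7.57 to 8.29, for choroid plexus epithelium (10.37) and for erythroid cells (10.72). The part of these markers in the low values of the array was not tested.

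The genes whose levels followed the members most closely over the 8 arrays were found by Pearson correlation among 8925 brighter genes, and most of each correlation is the distance between the groups. For Rspo1 they were Dap (r = 0.996, and 0.92 for deviations from group means), Ppic (0.99 and 0.76) and Golim4 (0.99 and 0.75). For Axin2 they were Svip, Ldb2 and Cd248, each with r = 0.99 over the arrays and 0.91 within groups. For Lgr4 they were Il6st (0.99 and 0.96), Ccdc80 (0.98 and 0.93) and Slc38a7 (0.98 and 0.93). The differences of these 9 genes ran from 0.29 for Slc38a7 to 1.08 log2 units for Golim4. All were picked for a high r on the same 8 arrays, so both correlations are raised by the picking.

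The rest of the pathway was described by 5 lists with 82 measured genes, of which 20 were higher and 7 lower in knockout-labelled arrays (limma, adjusted p under 0.05), against 6.31% and 10.2% of all genes. Their median difference was 0.06 log2 units, and that of all genes was 0.00. Of these 82 genes, 68 remained in a fit of only the probe sets above the median level. That fit called 27.7% of all its probe sets in either direction, against 12.7% in the main fit. In it, 26 of the 68 were higher and 7 lower. The shares over all genes are therefore not a like comparison for these brighter genes, and shares by direction in that fit are not given. Without 1 array the number higher ran from 11 to 22, being 11 without the fourth knockout-labelled array, 12 when the fourth wildtype array was left out and 13 when the third was. With arrays centred on their medians, 14 were higher and 8 lower.

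Of 12 measured Wnt target and feedback genes other than the members, 7 were higher and 0 lower, with a median of 0.34. Bambi, a decoy receptor of the TGF-beta family, rose by 0.52 log2 units (adjusted p = 0.0127). Nkd2, which binds Dishevelled and dampens the pathway, rose by 0.35 (adjusted p = 0.0322), and Tnfrsf19, a receptor of the TNF family, by 0.34 (adjusted p = 0.0384). All 7 adjusted p-values were 0.0127 or more. The other 5 did not pass. Ccnd1, a cyclin, had the same sign at 0.35 (adjusted p = 0.206), as did Dact1, which binds Dishevelled, at 0.22 (adjusted p = 0.0580), with groups that did not overlap. The opposite sign was found for Lef1, a TCF/LEF factor, at -0.26 (adjusted p = 0.0654), also with groups apart, for Sp5 at -0.15 and for Notum, a secreted enzyme that inactivates Wnt, at -0.03. These 5 were named after their values were seen.

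Of 14 measured antagonists, 5 were higher and 1 lower, with a median of 0.34. Dkk2, which binds the Lrp co-receptors, rose by 2.78 log2 units (adjusted p = 1.87e-07), Wif1, which binds Wnt ligands, by 1.35, and Frzb, a secreted Frizzled-like protein, by 0.48. Sostdc1, which acts on BMP and Wnt signals, fell by 1.25 (adjusted p = 0.000599). Of 15 receptors and co-receptors, 3 were higher and 2 lower, with a median of -0.02, against 6.31% and 10.2% of all genes. Fzd10, Fzd2 and Ror2 rose by 0.70, 0.59 and 0.51 log2 units, while Fzd4 and Fzd5 fell by 0.72 and 1.03. Frizzled receptors, on which the ligases act, moved both ways.

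Of 21 ligand and secretion genes, 5 were higher and 3 lower, with a median of 0.07, against 6.31% and 10.2% of all genes. Wnt4, Wnt6 and Wnt9a rose by 1.02, 0.62 and 0.47 log2 units. Wnt8b and Wnt5a fell by 0.75 and 0.41, and Wls, the carrier that brings Wnt proteins to the surface, fell by 0.33. Of 20 transducers inside the cell, 0 were higher and 1 lower, with a median of 0.03, and that 1 was Ctnnbip1, an inhibitor of beta-catenin, at -0.28 (limma, adjusted p = 0.0164). Ctnnb1, beta-catenin itself, differed by 0.06, and Axin1, the relative of Axin2 known to be made constantly, by 0.06 as well (adjusted p = 0.627 and 0.664); both were named after their values were seen.

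These values are those of each gene's brightest probe set, and other probe sets did not always share them. Of the 19 pathway genes named by the rule, 16 had 26 other probe sets, of which 11 passed in the same direction, 0 in the opposite direction and 15 not at all (limma). For 7 of the 16 genes no other probe set passed, namely Tnfrsf19, Wnt8b, Wnt9a, Fzd5, Fzd10, Frzb and Ctnnbip1. The other Tnfrsf19 probe sets differed by -0.08 and 0.16 (adjusted p = 0.706 and 0.473) and those of Wnt8b by -0.07 and -0.13 (adjusted p = 0.646 and 0.559). The other Fzd5 probe set differed by -0.14 (adjusted p = 0.240). For Fzd4, 1 of 2 others passed (-0.84), and the dimmer gave -0.17 (adjusted p = 0.268).

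**Figure D4:**
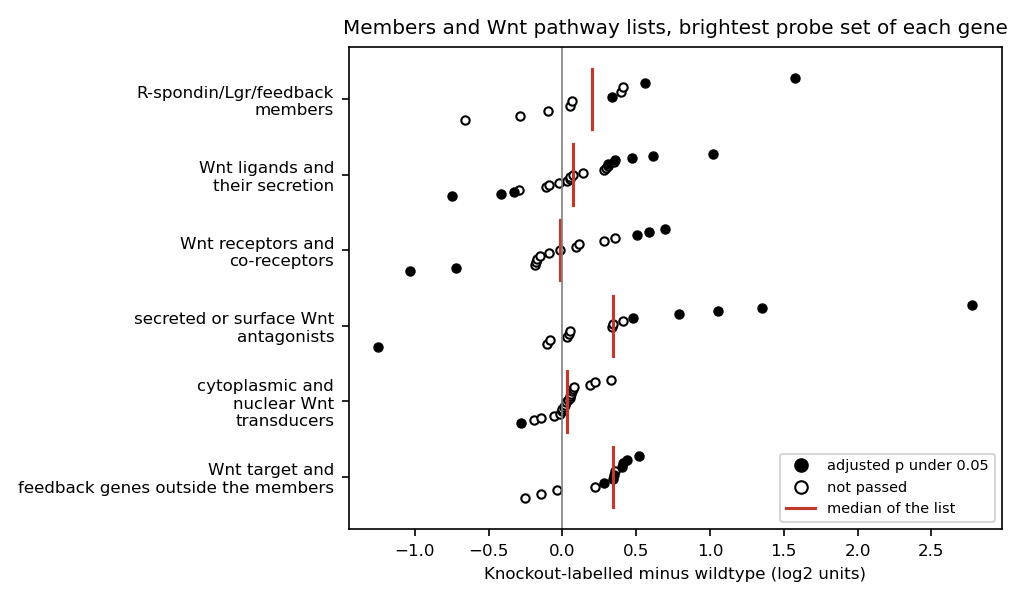
Knockout-labelled minus wildtype difference in log2 units (x axis) of every gene in the set of 10 members and in 5 Wnt pathway lists (rows), brightest probe set of each; filled points have an adjusted p under 0.05 and red bars are medians. The 20 transducers hold 1 filled point, and the target list has 7 of 12 filled, all above 0.

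Marker levels of several cell types differed between the groups beside these results. Stroma and mesenchyme markers were higher in 10 of 10 genes, and the log2 of their summed signal was 14.96 to 15.21 in knockout-labelled arrays and 14.47 to 14.56 in wildtype arrays. Macrophage markers were higher in 7 of 10 and lower in 0, at 12.75 to 13.20 in knockout-labelled and 12.08 to 12.32 in wildtype arrays. Epithelial markers of the choroid plexus were lower in 7 of 8, all but Ttr. The log2 sum of all 8 was 14.96 to 15.14 in knockout-labelled and 15.49 to 15.60 in wildtype arrays. In bulk tissue, fewer cells of a type and less RNA per cell cannot be told apart. The part of these markers in the differences of Rspo1, Lgr4, Axin2 and the pathway genes was not tested.

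Other neighbours of the tissue showed smaller or overlapping values. Neural progenitor markers were higher in 3 of 7, at a log2 sum of 13.60 to 13.80 in knockout-labelled and 13.10 to 13.55 in wildtype arrays. These sums were apart, whereas the mean levels overlapped, at 9.90 to 10.25 and 9.51 to 9.95. Pericyte and smooth muscle markers had means narrowly apart (8.91 to 9.19 and 8.80 to 8.89). Their sums overlapped, at 12.24 to 12.46 and 12.20 to 12.27, so separation depended on the measure. Neuron markers were called in 0 of 9 (limma), at 10.85 to 12.44 in knockout-labelled and 10.60 to 12.23 in wildtype arrays, the widest spread of the 10 lists. Rhombic lip markers were called in 0 of 6, at 10.48 to 11.21 in knockout-labelled and 10.07 to 10.88 in wildtype arrays. Roof plate markers were higher in 2 and lower in 3 of 7, pericyte and smooth muscle markers higher in 2 and lower in 2 of 7, endothelial markers lower in 2 of 9 and erythroid markers lower in 1 of 6. None of the measured markers averaged below that lower quartile of 4.34 log2 units.

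**Figure D5:**
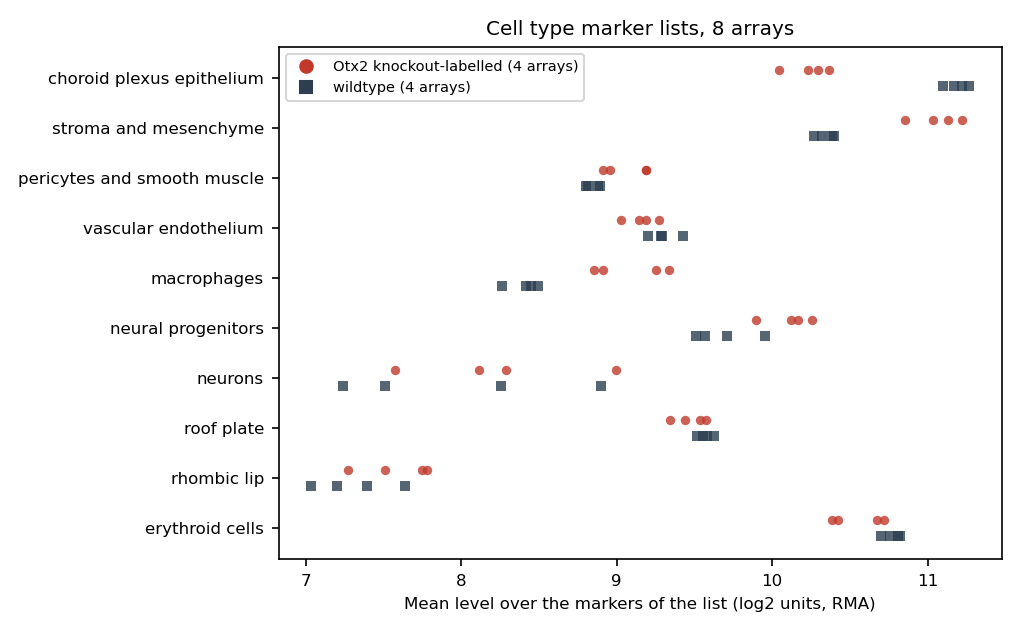
Mean level in log2 units (x axis) over the markers of 10 cell type lists (rows) in each knockout-labelled array (red circles) and wildtype array (dark squares). The groups are apart for choroid epithelium, stroma, mural cells and macrophages, and overlap for the other 6 lists.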

How the data were processed

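RMA is the one method the submitters' processing notes name, and the deposited file holds its log2 value for each probe set; the sources used here do not give its software or version. RMA equalises the arrays' distributions, so a change in total RNA cannot be seen, and differences of dim probe sets are compressed. Probe sets were named through the platform annotation, in which 34945 of 45037 non-control probe sets had 1 gene symbol, 932 several and 9160 none listed; all 10 member identifiers had the same symbol in the RefSeq gene table.

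All 45037 probe sets were fitted with limma 3.58.1 in R 4.3.3 (genotype as the only term, two-sided, no filter), with Benjamini-Hochberg adjustment over all of them and calls at an adjusted p under 0.05. For lists, the probe set with the highest mean over all arrays stood for a gene. Changes were compared within families by exact permutation. Values are means ± SD over 4 arrays. The number of arrays limits the precision. Nothing says that replicates came from separate litters. The limma p-values set each difference against the spread between these arrays, moderated over all probe sets. They cannot speak for the spread between litters.

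Named were all members, Otx2, up to 3 called genes per pathway list and direction by smallest p, and the 3 genes most correlated with each called member. The members and lists were chosen with earlier results of these data known. Between groups, arrays of the same number had deviations from the group mean that correlated at 0.131, 0.232, 0.160 and 0.223 across genes, each above 0.1 (other combinations -0.296 to 0.294), so a fit with the number as a block stands beside the main one; no label says what a number marks. The procedure was run on simulated data with independent normal noise. These held no shifts in cell content and no outlying arrays, so the run does not test for them. Alternatives covered the block, array weights, the variance prior, dim probe sets, scaling, probe set choice, threshold, an Xist covariate and leaving out each array.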

Additional observations from a re-analysis of the deposited data

Results flagged for a closer look

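In 2 of 34 groups of 4 arrays, 1 array stood far from the other 3 of its group, by a gap that took up more of the group's range than Dixon's 95% limit; chance alone gives about 1 in 20. Wildtype replicate 3 read 5.68 log2 units for the brighter Lgr5 probe set, against 4.92 to 5.04 in the other wildtype arrays. Wildtype replicate 1 read 5.37 log2 units for the dimmer Znrf3 probe set, against 5.88 to 5.96 in the others.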

How the results depend on the processing

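The calls of Rspo1 and of the brighter Axin2 probe set held in all 19 alternatives, and no called difference changed sign. Near-zero differences that had not passed changed sign 17 times, in 6 probe sets, none passing (limma, adjusted p of 0.777 or more). With the Xist covariate the difference was -0.0087 for the dimmer Rspo2 probe set, -0.023 for the dimmer Rspo3, 0.021 for the dimmer Lgr4 and -0.046 for Rspo4. The dimmer Lgr4 also gave 0.021 with array weights, and Lgr6 gave -0.026 as the mean of its probe sets. Without 1 array, the dimmer probe sets ranged from -0.0052 to 0.048 for Rspo2, -0.010 to 0.11 for Rspo3, -0.075 to 0.039 for Lgr4 and -0.12 to 0.079 for Lgr5, and Rspo4 ranged from -0.083 to 0.14. The Lgr4 call was lost in 10 of 19, namely 7 of the 8 fits without 1 array, the mean of its probe sets (adjusted p = 0.224), the Xist covariate (0.0894) and a threshold of 0.01. The number of member probe sets higher in knockout-labelled arrays was 3, ran from 2 to 5 without 1 array, and was 5 with array weights, which added Rnf43 (adjusted p = 0.0351) and the dimmer Axin2 probe set (0.0396). The number lower was 0 and ran from 0 to 1 without 1 array. It was 1 with the replicate block, with array weights and with the Xist covariate (limma, adjusted p = 0.0156, 0.0461 and 0.0342). In each case it was the brighter Rspo2 probe set. Xist was 6.06 log2 units in wildtype replicate 1 and 10.35 to 12.05 in the others, so its covariate largely marks that array. The Xist fit is therefore not separate from the fit without wildtype replicate 1. The replicate block changed no other call of a member. Of the pathway genes, 20 were higher and 7 lower. The number higher was 9 at a threshold of 0.01 and 13 with the Xist covariate, and ran from 11 to 22 without 1 array, while the number lower ran from 6 to 8. Of the 10 family pairs, 7 passed, 0 with the mean of probe sets, and 0 to 8 without 1 array; limma with the replicate block on the same differences gave 7. Another scaling moved the median of all probe sets from 0.01 to no lower than -0.02 log2 units. Only 7 of the 17 member probe sets were above the median level of all probe sets, and those of Lgr5, Lgr6, Rspo4 and Rnf43 were all under it.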
